A study of Arabidopsis thaliana with 4 samples.

Results

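In 14-day-old whole seedlings of Arabidopsis thaliana, 127 probe sets read lower on the array of the CESTA enhancer trap line than on every other array of the series. A probe set is a group of short probes on the array that reads the transcripts of 1 gene or of a few similar genes. These 127 are called members here. They were chosen by their signal: among the 13648 of 22810 probe sets that were not controls and passed a filter on mean signal, a member lay at least 1 lower on the log2(signal + 1) scale in the enhancer trap than in each of the other 3 arrays. The rule was met by 148 probe sets (1.08% of those tested). Of these, 21 were left out as belonging to gene families or to a stretch of chromosome 4 that were not considered here, 16 of them for the locus range AT4G10300 to AT4G20500 and 5 for their symbol. Because the signals chose the members, each member's difference between the enhancer trap and the other arrays is a description with no test.

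The study placed 4 RNA samples on 1 single-colour ATH1 array each. The groups were Columbia-0 wild type with 1 array, a T-DNA line labelled as a knockout of CESTA with 2 arrays, and the enhancer trap line, also tagged in the labels as a gene knockout, with 1 array. All 4 samples carry the Col-0 background, spent 2 days at 4 °C and then grew vertically on agar at 24 °C with 16 h of light and 8 h of dark. Whether the knockout arrays came from separate cultures is not stated, so every p-value here rests on differences between arrays that may be technical repeats. Wild type and the enhancer trap have no replicate.

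CESTA (CES) is a transcription factor with a basic helix-loop-helix domain that acts in brassinosteroid signalling. Brassinosteroids are plant steroid hormones that drive cell elongation, and factors of this family bind short E-box elements in promoters. An enhancer trap is an inserted DNA whose expression depends on regulatory sequence near the insertion, and such an insertion can also change the expression of the genes beside it.

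Facts of the arrays that touch the members are few. The median signal ran from 38.5 to 39.6 over the 4 arrays. CES (AT1G25330) read 4124 in the enhancer trap, 0.533 in wild type, and 7.29 and 5.35 in knockout replicates 1 and 2. The highest signal among 27 Bacillus control probe sets, which have no target in the plant, was 10.6 and serves as the background level. CES was under this level in wild type and in both knockout arrays. These arrays therefore cannot show whether CES differed between knockout and wild type. The 3'/5' signal ratio of GAPDH, which rises as RNA is degraded, was 1.38 in the enhancer trap and 1.70 to 2.01 on the other arrays, and that of ubiquitin was 2.82 against 2.55 to 3.00. The ratio of actin was far higher on every array, at 19.7 in the enhancer trap and 13.5 to 25.5 on the others. Their part in the members' values was not tested.

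Of the 127 members, 47 carry 1 gene in the platform annotation, 9 carry several genes and 71 are not listed there. The exclusions by family and locus could be applied only to listed probe sets, so unlisted members may include probe sets of the excluded genes. No gene had more than 1 member probe set. The distance from the enhancer trap to the lowest of the other arrays, called the gap, had a median of 1.38 on the log2 scale. It was 2 or more in 23 members, 3 or more in 7, and from 1 to under 5/4 in 46. Of the 7, only the probe set 245399_at and the gene ZW9 read above the background level in the enhancer trap. The other gaps of 3 or more include differences within background, so their size is uncertain. In the enhancer trap 12 members were at or under the background level. On each of the other arrays all 127 were above it, which the filter on mean signal and the rule largely impose. In whole seedlings, fewer cells of a type and less RNA per cell cannot be told apart.

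The other 3 arrays lay close together for most members. Relative to wild type, knockout replicate 1 was within 0.5 on the log2 scale for 119 of 127 members and knockout replicate 2 for 115. The quartiles of the knockout mean minus wild type were -0.13 and 0.17 over the members. Over all tested probe sets they were -0.16 and 0.12, so this closeness was shared by the arrays as a whole. The median difference from wild type was 0.05 in knockout replicate 1, 0.04 in knockout replicate 2 and -1.54 in the enhancer trap. For the enhancer trap the differences ran from -4.88 to -1.04. The range of the other 3 arrays had a median of 0.28 over the members. In all 127 the gap was wider than that range, which largely follows from the rule, as it demands a gap of at least 1. None of the 127 differed by 1 or more between the knockout arrays, beside 83 of all 13648 tested probe sets (0.608%). At that share a count of 0 among 127 is near the background and says little.

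**Figure D1:**
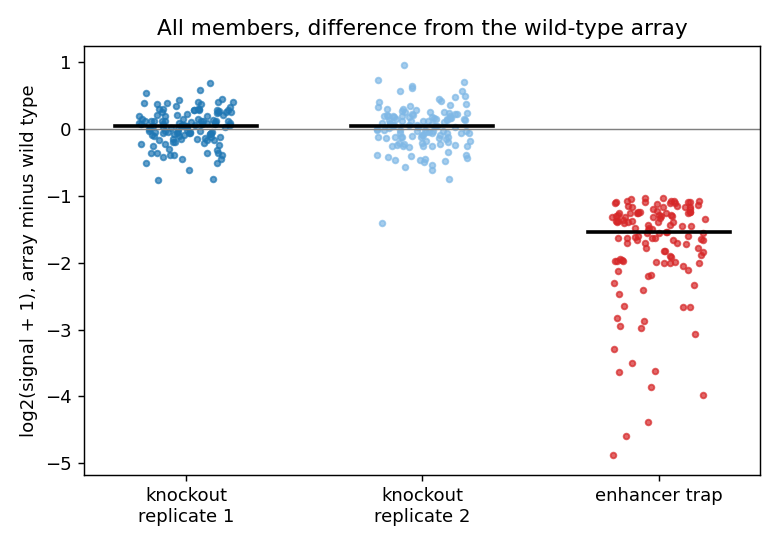
Difference of each array from wild type on the log2(signal + 1) scale for the 127 members, 1 point per probe set, with a bar at the median. The knockout arrays scatter around 0, and all enhancer trap points lie at or below -1.04, which the rule imposes.

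The named gene with the widest gap was ZW9 (AT1G58270), a gene of the TRAF-like family, whose proteins carry the domain that TRAF adaptors use to bind partners. Its signal was 807 in wild type, 869 and 972 in the knockout arrays, and 37.9 in the enhancer trap. The enhancer trap value stayed above background and was 21.3-fold under wild type. The other arrays were close together, and none came near it.

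Among proteins of stress and defence, 4 members could be named, with gaps from 1.24 to 3.45. AT5G52760 encodes a small protein with a heavy-metal-associated domain, and it read 45.2 in wild type, 43.7 and 53.7 in the knockout arrays and 3.095 in the enhancer trap. That last value is within background, so the enhancer trap was at least 4.25-fold under wild type. The thionin gene AT1G66100, of a family of small antimicrobial peptides, read 547, 607, 731 and 167 in wild type, knockout replicates 1 and 2, and enhancer trap. AT1G72060, which encodes a small peptidase inhibitor, read 75.7, 89.8, 88.4 and 31.0 in the same order. AT2G20142, which encodes a protein with the Toll/interleukin receptor domain found in many plant immune receptors, read 36.0, 32.0, 38.2 and 13.0. For the thionin and AT1G72060 wild type was below both knockout arrays, and for the other 2 genes it lay between them.

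Both members that encode legume-type lectins, proteins that bind sugars, had nearly equal gaps. AT3G16530 read 419 in wild type, 456 and 448 in the knockout arrays and 110 in the enhancer trap, with a gap of 1.91. AT5G03350, a lectin gene known to be induced by salicylic acid, read 167, 173, 171 and 43.7 in the same order, with a gap of 1.91 as well. The enhancer trap was 3.79-fold under wild type for the former and 3.81-fold for the latter.

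Kinase genes gave 4 named members. AT5G03320, a protein kinase gene near AT5G03350, read 110 in wild type, 112 and 93.1 in the knockout arrays and 24.9 in the enhancer trap. The leucine-rich repeat receptor kinase gene AT1G35710 read 69.8, 62.2, 78.2 and 23.2 in the same order. AT1G66940, a kinase-related gene, read 338, 313, 335 and 137. AT1G51850, also of the leucine-rich repeat receptor kinases, was dim throughout, at 28.3, 36.3, 27.3 and 11.5, just above the background level in the enhancer trap. Receptor kinases of this kind sit in the plasma membrane and pass on signals from outside the cell.

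Signalling and regulatory genes gave 3 members with small gaps, from 1.06 to 1.30. AT1G75490 encodes a transcription factor of the AP2/ERF family and read 33.1 in wild type, 31.1 and 40.9 in the knockout arrays and 12.04 in the enhancer trap. PUB26, a U-box ubiquitin ligase, read 73.3, 67.3, 66.6 and 31.4 in the same order. AT5G39670, which encodes an EF-hand calcium-binding protein, read 28.2, 28.2, 29.6 and 12.04. The enhancer trap values of AT1G75490 and AT5G39670 lay barely above background.

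**Figure D2:**
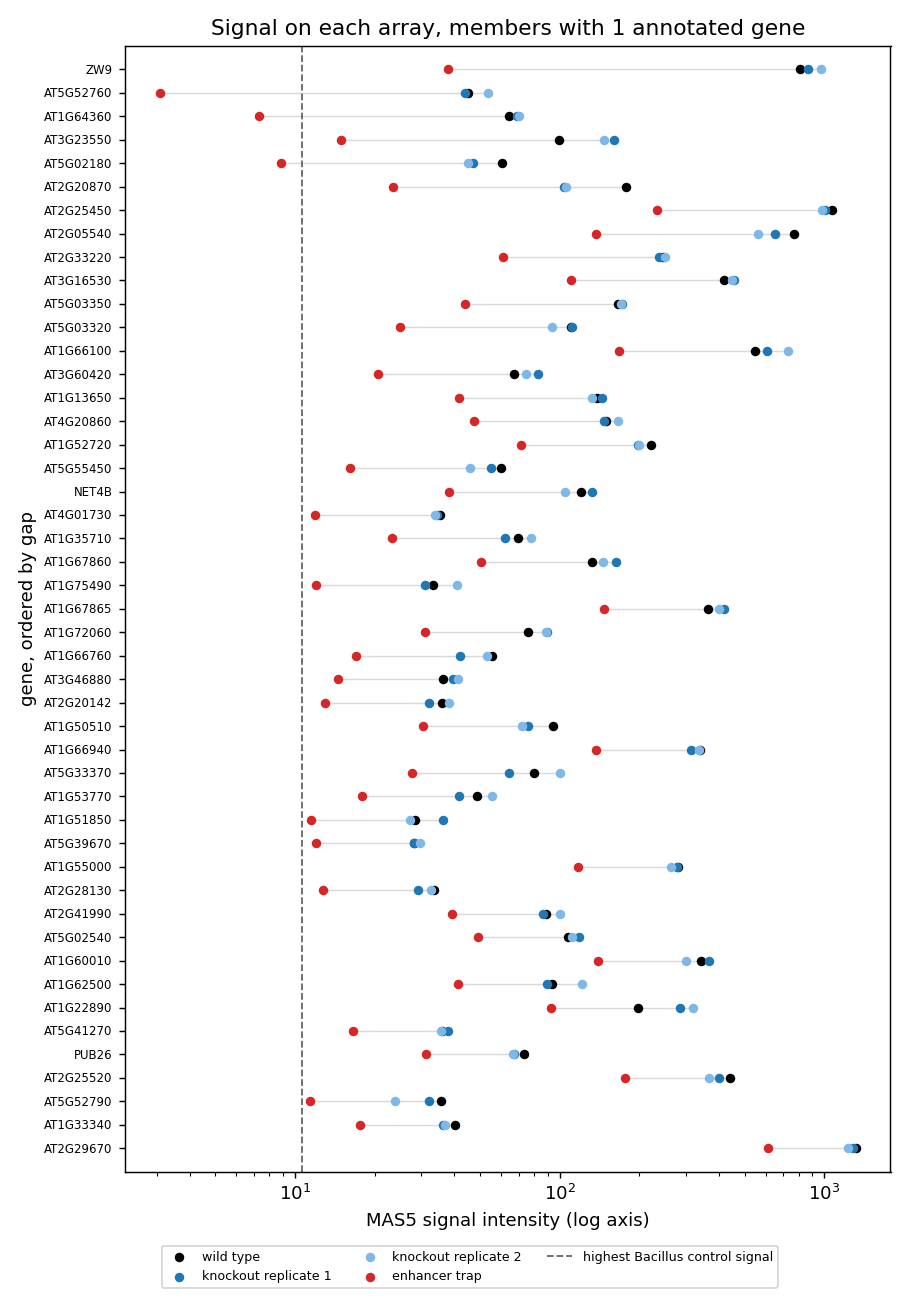
Signal intensity on each of the 4 arrays (log axis) for the 47 members with 1 annotated gene, ordered by gap, with the highest Bacillus control signal of 10.6 as a dashed line. The red enhancer trap point stands to the left of the other 3 points in every row, and 3 of them are left of the dashed line.

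Transport proteins gave 4 members. AT3G23550, of the MATE efflux carriers that export small molecules, read 99.7 in wild type, 161 and 147 in the knockout arrays and 14.9 in the enhancer trap. A second MATE gene, AT1G66760, read 55.5, 41.9, 53.3 and 16.9 in the same order. The amino acid transporter gene AT5G02180 read 60.7, 46.9 and 45.0, and 8.88 in the enhancer trap. The last value is within background and at least 5.72-fold under wild type. AT2G25520, of the nucleotide-sugar and phosphate translocator family, read 442, 400, 366 and 176. For AT3G23550 wild type was the lowest of the other arrays, and for the other 3 transporter genes it was the highest.

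Enzymes formed the largest group with 8 named members and gaps from 1.11 to 2.07. AT2G25450 encodes the 2-oxoglutarate-dependent dioxygenase that hydroxylates the side chain of butenyl glucosinolates, sulphur-containing defence compounds of the cabbage family. It read 1065 in wild type, 1008 and 980 in the knockout arrays and 233 in the enhancer trap, 4.56-fold under wild type. AT2G33220, which encodes the GRIM-19 subunit of mitochondrial complex I, read 245, 238, 249 and 60.8 in the same order. AT3G60420, of the phosphoglycerate mutase family, read 67.2, 82.8, 74.6 and 20.6, and AT4G20860, a berberine bridge enzyme-like oxidase gene, read 149, 147, 165 and 47.4. The other 4 enzyme genes were AT1G50510, AT5G33370, AT1G53770 and AT5G02540, with wild-type signals from 48.7 to 107 and gaps from 1.11 to 1.22. AT5G33370 encodes a GDSL-type lipase that acts in cutin synthesis, and its knockout values of 64.1 and 100 lay on either side of 79.6 in wild type. AT3G60420 was the only named member with a further probe set of its own on the array, and that probe set was at 1.74 or less on every array, within background, and could not show a change.

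Proteins of the wall and the cell surface gave 4 members. AT2G20870, which encodes a putative cell wall protein, read 179 in wild type, 104 and 106 in the knockout arrays and 23.5 in the enhancer trap. The glycine-rich protein gene AT2G05540 read 766, 651, 562 and 137 in the same order. Lipid-transfer-like genes AT5G55450 and AT1G62500 had gaps of 1.45 and 1.102, the former at 59.9, 54.8, 45.6 and 16.1, and the latter at 93.9, 89.9, 121 and 41.3. For AT2G20870, AT2G05540 and AT5G55450 both knockout arrays lay between wild type and the enhancer trap.

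Other named members included the actin-binding NET4B, at 120 in wild type, 132 and 105 in the knockout arrays and 38.3 in the enhancer trap. AT1G55000, which encodes a protein with a LysM domain, read 280, 278, 263 and 118 in the same order. AT2G29670, of the tetratricopeptide repeat proteins, read 1313, 1279, 1233 and 614. No role is given here for 12 named members. The widest gap among them was that of AT1G64360, at 64.1, 68.7, 70.0 and 7.30, at least 6.03-fold under wild type. AT1G13650 read 138, 144, 132 and 41.7, AT1G52720 read 222, 198, 199 and 71.2, and AT4G01730 read 35.2, 34.3, 33.8 and 11.9. The remaining 8 had gaps from 1.07 to 1.37.

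Unlisted probe sets held the widest gap of all. Probe set 245399_at read 1355 in wild type, 1585 and 1531 in the knockout arrays and 55.1 in the enhancer trap. Probe set 245448_at read 97.9, 91.3, 65.7 and 2.37, and 259629_at read 62.0, 75.2, 73.9 and 4.05 in the same order. The latter 2 were within background in the enhancer trap. The genes of these probe sets are unnamed here.

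The threshold of 1 falls in a dense part of the ranking. Just inside it lay AT2G29670, AT1G33340, AT5G52790 and AT2G25520, with gaps of 1.004, 1.006, 1.006 and 1.05. Just outside lay the defensin gene PDF1.2b, AT2G41480, AT2G27360 and AT2G27290, with gaps of 0.985, 0.984, 0.981 and 0.978. AT1G33340, an ENTH/ANTH domain gene, read 40.3 in wild type, 36.3 and 36.8 in the knockout arrays and 17.6 in the enhancer trap, and AT5G52790 read 35.5, 31.9, 23.9 and 11.4 in the same order. AT2G41480 read 56.2, 54.1, 42.7 and 21.1, AT2G27360 read 70.6, 50.6, 45.0 and 22.3, and AT2G27290 read 363, 314, 309 and 156. PDF1.2b read 126 in wild type, 139 and 59.8 in the knockout arrays and 29.7 in the enhancer trap. Its place outside the rule thus came from knockout replicate 2.

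The knockout against wild type is the comparison that leaves out the enhancer trap array, and it asks whether the members differ in the line labelled as a loss of function. It was tested with limma across all 13648 probe sets. Of the 127 members, 0 were called higher and 0 lower at a Benjamini-Hochberg adjusted p of 0.05, beside 0.125% of all tested probe sets called higher and 0.0586% called lower. At these rates a count of 0 among 127 is near the background and says little. At an unadjusted p under 0.05 there were 11 members (8.66%), beside 5.67% of all tested probe sets. The rule sets a floor under all 3 other arrays, which limits how far the members could fall in the knockout.

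The members' median difference between knockout and wild type was 0.04 on the log2 scale, beside -0.01 over all tested probe sets, with 73 members above 0 and 54 below. Differences ran from -1.08 to 0.69, with a median standard error of 0.237, beside 0.221 over all tested probe sets. The named member with the smallest p was AT1G22890, at 197 in wild type and 284 and 319 in the knockout arrays, a difference of 0.61 (SE 0.178, limma adjusted p = 0.265). For AT2G20870, of the cell wall, the difference was -0.76 (SE 0.225, limma adjusted p = 0.269), and for the MATE gene AT3G23550 it was 0.62 (SE 0.230, limma adjusted p = 0.523). None of these passed, which does not show that they were equal in the 2 lines. With 1 residual degree of freedom the test depends on its settings: 25 of all probe sets passed here, 0 without the signal filter (1211 of 22746 at an unadjusted p under 0.05) and 59 with median centring over the tested probe sets.

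**Figure D3:**
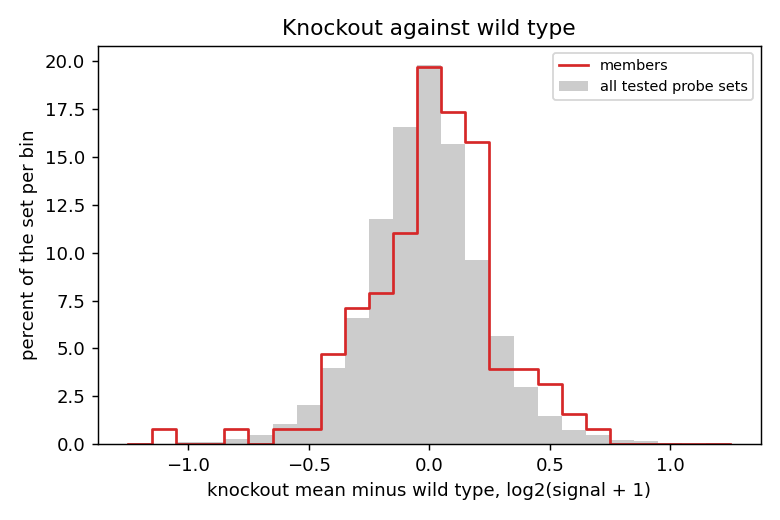
Knockout mean minus wild type on the log2(signal + 1) scale, as percent of each set per bin of 0.1, for the 127 members (red line) and all 13648 tested probe sets (grey bars), with values beyond the outer bins placed in them. Both distributions centre near 0, with medians of 0.04 and -0.01.

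Positions on the chromosomes were not used by the rule apart from the range left out on chromosome 4. Only probe sets listed in the platform annotation could be placed. The 71 unlisted members, and 6086 of the 13648 tested probe sets in all, have no position here. In gene order on assembly TAIR10.1, members made up 21 of 1824 tested genes on chromosome 1 (1.15%), 10 of 1027 on chromosome 2 (0.974%), 4 of 1439 on chromosome 3 (0.278%), 2 of the 753 tested genes left on chromosome 4 (0.266%) and 10 of 1724 on chromosome 5 (0.580%), beside 0.695% overall. These shares are descriptive and were not tested.

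Some named members were close to each other, with no test of how many. Of the 47, 10 had another named member within 5 tested genes (21.3%), beside 426 of the 6720 other tested genes (6.34%). AT1G67860 and AT1G67865 are next to each other and had gaps of 1.37 and 1.30. The kinase gene AT5G03320 and the lectin gene AT5G03350 have 1 tested gene between them, AT5G03345, which read 363 in wild type, 394 and 366 in the knockout arrays and 361 in the enhancer trap. AT5G52760 and AT5G52790, the latter a CBS domain gene, likewise enclose 1 tested gene, AT5G52780, at 121, 115, 131 and 108. In both cases the 1 tested gene in between was level while the members on either side were low in the enhancer trap. The pairs lie 4 and 3 entries apart in the gene table. Entries with no named tested probe set of their own thus also lie between them. Between the glucosinolate gene AT2G25450 and the transporter gene AT2G25520 lies AT2G25510, at 4903, 4408, 5381 and 2458, which was also lower in the enhancer trap, with a gap of 0.842.

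Within chromosome 1, 2 stretches that begin and end with a member were read, both chosen after their values had been seen, so their shares are high by construction. From AT1G49780 (PUB26) to AT1G60010, 8 of 202 tested genes were members (3.96%), beside 13 of 1622 on the rest of chromosome 1 (0.801%). The 8 were PUB26, AT1G50510, AT1G51850, AT1G52720, AT1G53770, AT1G55000, ZW9 and AT1G60010. From AT1G62500 to AT1G72060, 8 of 268 were members (2.99%). CES (AT1G25330) is also on chromosome 1 but lies outside both stretches. The position of the enhancer trap insertion is not given here, and its part in these shares was not tested. Over the tested genes of the former stretch the median difference between enhancer trap and wild type was -0.05 on the log2 scale, beside -0.01 over the rest of the genome. Of 13 tested probe sets that read several genes all lying in the former stretch, 5 were members, beside 4 of 260 other tested probe sets with several genes.

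**Figure D4:**
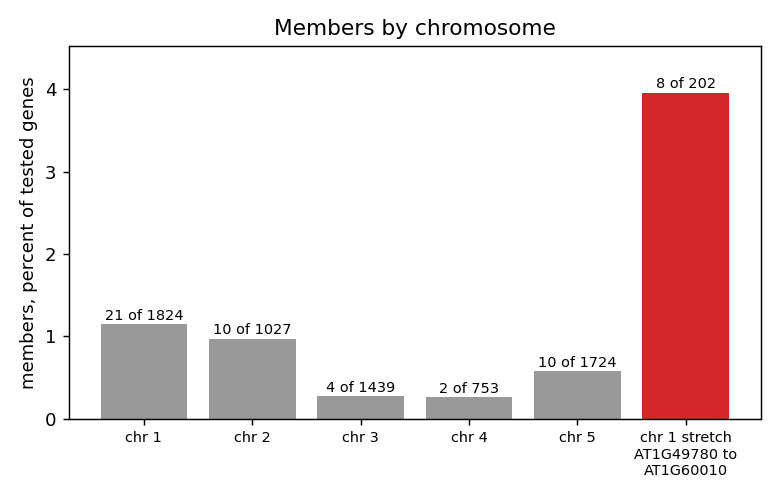
Members with 1 annotated gene as percent of the tested genes that the rule could choose, by chromosome (grey) and for the chromosome 1 stretch from AT1G49780 to AT1G60010 (red, also part of the chromosome 1 bar, and chosen after its values were seen). The stretch stands at 3.96% and the chromosomes between 0.266% and 1.15%.

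Members also lay next to ZW9, the named member with the widest gap, a place chosen after its values had been seen. The gene table lists 59 entries between ZW9 and the next tested gene with a probe set of its own, AT1G59520. Of the listed probe sets, 3 read several genes that all lie among those entries, and all 3 were members. Unlisted probe sets may also lie there. Probe set 245218_s_at, shared by 2 genes, read 127 in wild type, 118 and 93.7 in the knockout arrays and 7.83 in the enhancer trap, within background. Probe set 245219_at, also shared by 2 genes, read 218, 209, 182 and 42.5 in the same order. Probe set 245841_s_at, shared by 4 genes, read 2143, 2182, 2355 and 952. Signals of such probe sets cannot be assigned to 1 of their genes.

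Other listed probe sets tested around ZW9 were mostly near wild type. Within 100 table entries on each side, 27 listed probe sets were tested, 4 of them members. Of the other 23, 21 were within 1 of wild type in the enhancer trap, with a median of -0.06. The exceptions were AT1G58110, at -1.30 in the enhancer trap and -0.67 in the mean of the knockout arrays, and AT1G59620, at 1.08 and 1.26. Among probe sets under the signal filter, AT1G58150, before ZW9 in gene order, was also low in the enhancer trap. It read 31.0 in wild type, 24.9 and 26.8 in the knockout arrays and 1.95 in the enhancer trap, the last within background.

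**Figure D5:**
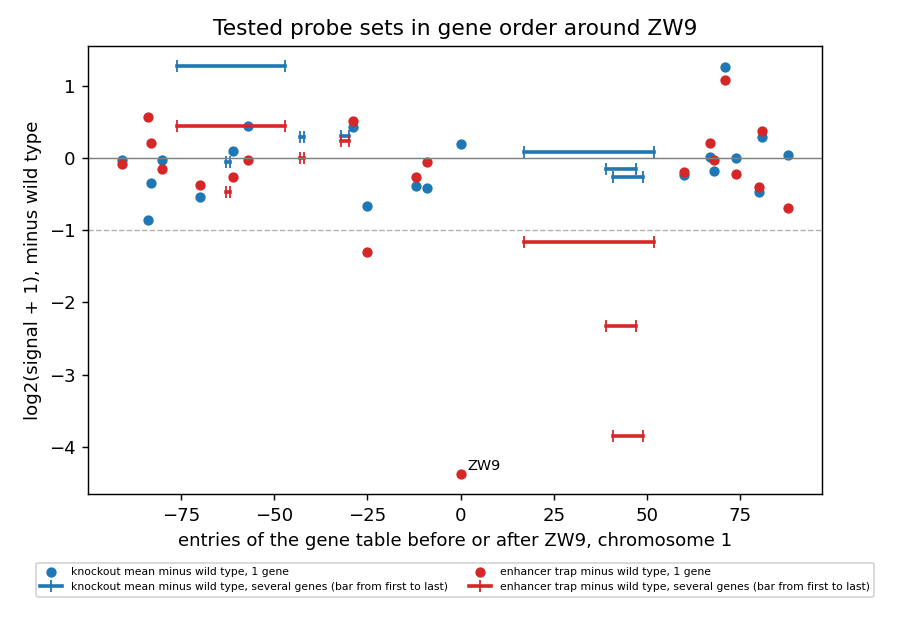
Difference from wild type on the log2(signal + 1) scale for the 27 listed and tested probe sets in gene order around ZW9, red for the enhancer trap and blue for the mean of the knockout arrays. Points are probe sets with 1 gene, and bars run from the first to the last gene of a probe set that reads several; ZW9 and the 3 bars to its right are low in red only.

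Genes of hormone, nutrient, stress and metabolic pathways were read from 13 lists of 215 genes. The annotation used names few of them, so 12 were tested and 0 of these were members, beside 0.931% of all tested probe sets. At that share a count of 0 among 12 says little. In the enhancer trap against wild type, 2 of the 12 were called higher and 2 lower, beside 2.04% and 2.26% of all tested probe sets (4.29% in either direction). The median over the 12 was 0.04, beside -0.01 over all tested probe sets. This comparison sets 1 array against 1, with the spread taken from the knockout arrays, which may be technical repeats. Its p-values and calls therefore compare these arrays and leave out the spread between plants of either line.

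Both tested genes of the auxin response list were called lower. HAT2, a homeodomain-leucine zipper factor induced by auxin, read 325 in wild type, 403 and 361 in the knockout arrays and 168 in the enhancer trap, and it differed from wild type by -0.95 (SE 0.192, limma adjusted p = 0.000855). Its gap of 0.948 left it just outside the members. GH3.5, which joins auxin to amino acids, read 223, 258, 228 and 128 in the same order and differed by -0.80 (SE 0.206, limma adjusted p = 0.0124). Neither call held when the signal filter or the intensity trend was dropped, and that of GH3.5 also with median centring.

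Of the other lists, LTI30, a dehydrin gene of the cold, drought and abscisic acid response, was higher by 1.199 (SE 0.183, limma adjusted p = 8.96e-06), from 396 to 911. DFR, of anthocyanin synthesis, was higher by 1.74 (SE 0.437, limma adjusted p = 0.0104), from 15.7 to 54.5. The call of LTI30 was lost without the intensity trend (adjusted p = 0.0536), and DFR lost its call under that setting, without the filter and with median centring. BCAT4, the aminotransferase at the start of methionine-derived glucosinolate synthesis, stood at -0.47 (SE 0.177, limma adjusted p = 0.150), in the same pathway as the member AT2G25450. SAG101, an immune regulator of the salicylic acid list, stood at 0.53 (limma adjusted p = 0.703). The brassinosteroid genes BIM1 and BAT1 stood at 0.64 (limma adjusted p = 0.117) and -0.17. CHI of flavonoid synthesis was at 0.92 (limma adjusted p = 0.0577; 0.0386 with quantile normalization and 0.0348 with median centring over the tested probe sets), HHO1 of the nitrate list at 0.14, PYE of the iron list at -0.20 and GI of the clock at -0.06. The jasmonate, low oxygen, shade and sugar starvation lists had 0 tested genes.

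Organ markers were read to check the tissue. The root marker PYK10 and the green tissue marker RCA were both bright on all arrays. Of 13 root markers 2 were tested: PYK10 read 3525 in wild type, 3308 and 3598 in the knockout arrays and 4112 in the enhancer trap, and the root-hair expansin gene EXPA7 read 44.7, 59.3, 83.1 and 113. EXPA7 was higher by 1.31 in the enhancer trap than in wild type (SE 0.284, limma adjusted p = 0.00191), a call lost when the filter or the intensity trend was dropped. Of 19 green tissue markers 3 were tested, RCA, LHCB4.1 and LHCB4.2, at -0.25, -0.23 and -0.24 in the enhancer trap, and none was called. The part of organ proportions in the members' values was not tested. For knockout and wild type, limma called 0 of the 17 tested list genes, beside 0.183% of all tested probe sets. At an unadjusted limma p under 0.05 there were 2 of the 17, beside 5.67% of all tested probe sets. Counts this small among 17 genes say little.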

How the data were processed

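RNA of 4 whole-seedling samples was read on Affymetrix ATH1 arrays. The authors deposited signal intensity on a linear scale, 1 value per probe set, and the submitters' processing notes name MAS5 and GCOS; versions and detection calls are not given in the sources used here. With 2% trimmed from either tail, the mean of every array was 100.01, which shows earlier scaling. No depth exists for arrays, and their number limits the precision. MAS5 signals scatter more when dim.

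Signals were taken as log2(signal + 1), which understates changes of dim genes. The 64 control probe sets were left out, and probe sets at or above the 40th percentile of mean log2 signal (4.58) were kept. Limma 3.58.1 in R 4.3.3 (lmFit and eBayes with an intensity trend) fitted 3 group means to the 4 arrays, with two-sided p-values adjusted by Benjamini-Hochberg over 13648 probe sets. The fit has 1 residual and 41.8 prior degrees of freedom, and the wild type and enhancer trap arrays borrow their spread from the knockout pair. On simulated data of 13648 genes it recovered 67.0% of 200 log2 changes of 1 and 100% of changes of 2 for knockout against wild type. It also called 5 and 11 unchanged genes. The simulated noise was normal, with the spread of the fit's own trend, which comes from the knockout pair. Genes that scatter more at the same signal, and spread between cultures, are not covered, so recovery in the real data may be lower.

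Where the lower signal was at or under 10.6, the highest Bacillus control, folds are bounds against that level. Genes were named from the platform annotation, only where a probe set has 1 gene, and ordered on RefSeq assembly TAIR10.1. Fully described are the 12 named members with the largest gap, the 6 with the highest wild-type signal, up to 4 per role, the 4 on each side of the threshold, and 3 unlisted probe sets; list genes, 4 per list at most. Roles were assigned after the names were seen. The members and lists were chosen with earlier results of these data known. Alternatives covered the pseudocount, scaling, filter, trend, gap and knockout replicate. Plots used matplotlib 3.10.9 and Python 3.11.15.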

Additional observations from a re-analysis of the deposited data

How the results depend on the processing

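The number of members was 127 as reported, 118 with a pseudocount of 4, 124 with quantile normalization and 128 with median centring. It moved further to 80 with a pseudocount of 16, to 73 at the 60th percentile filter and to 504 without a filter, and to 52 and 23 with gaps of 1.5 and 2. Leaving out 1 knockout array gave 132 to 138, with 118 to 121 of the 127 among them. Of 310 gaps of the 47 named genes over the settings, 32 fell under 1. With a pseudocount of 16 alone, 24 of the 47 genes did. The 310 include 47 gaps without a filter and 28 at the 60th percentile filter, which cannot change a gene's gap. Of the members, 0 were called in the knockout against wild type under every planned setting that could be tested (limma; 8 to 13 at an unadjusted p under 0.05), and 1, probe set 257506_at, with median centring over the tested probe sets, a setting chosen after the data were seen. All probe sets called in that comparison, 25 as reported, numbered 2 with median centring, 59 with median centring over the tested probe sets, 0 without the filter (1211 at an unadjusted p under 0.05) and 2 without the intensity trend. List genes called between enhancer trap and wild type, 5 of 17 as reported, numbered 6 with quantile normalization and with median centring over the tested probe sets, where CHI was added, 3 with median centring, 1 without the filter and 0 without the trend by limma, where 7 had an unadjusted p under 0.05. Leaving out a knockout array leaves no residual degree of freedom, so these tests were not run for it. No paired analysis was possible because the groups share only replicate number 1. Signals near 10.6 limit 12 members to bounds.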

Other observations

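The signal filter left out 9098 probe sets, and of those 69 met the same gap with all 3 other arrays above the background level, after the same exclusions. They have 35 probe sets with 1 annotated gene, named here after their values were seen and with no test. AT1G26380, a berberine bridge enzyme-like gene like the member AT4G20860, read 15.0 in wild type, 13.3 and 21.0 in the knockout arrays and 0.245 in the enhancer trap. GLR2.7, a glutamate receptor-like channel gene, read 15.0, 11.5, 16.4 and 1.103 in the same order, and NGA1, a B3 transcription factor gene of leaf and flower shape, read 15.2, 12.2, 13.2 and 1.63. All 3 were only slightly above background on the other arrays. The MADS-box gene AGL87 was brighter, at 43.4 in wild type, 39.6 and 31.0 in the knockout arrays and 0.651 in the enhancer trap. For all 35 genes the enhancer trap value was within background, so the size of these differences is uncertain.

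Of these 35 genes, 7 lie in the chromosome 1 stretch from AT1G49780 to AT1G60010, among 37 genes below the filter there whose other 3 arrays were above background. Elsewhere 28 of 861 such genes met the gap. The stretch was chosen after the values of its members on these same arrays had been seen, so these shares are a description with no test. Among the 7 is AT1G52710, the neighbour of the member AT1G52720, at 30.7 in wild type, 23.3 and 27.1 in the knockout arrays and 1.05 in the enhancer trap.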
